A study of Homo sapiens with 6 samples.

Results

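Histone variants are non-canonical histone proteins that take the place of the core histones in particular nucleosomes. The 8 genes described here encode the replacement histone H3.3 (H3-3A and H3-3B), H2A.Z (H2AZ1 and H2AZ2), H2A.X (H2AX), H2A.J (H2AJ) and the macroH2A histones (MACROH2A1 and MACROH2A2). They were chosen by name and are 8 of the 58096 genes in the files. Core histone genes are transcribed mainly in S phase and most of their mRNAs lack a poly(A) tail. The variant genes mostly have introns, are transcribed throughout the cell cycle and give polyadenylated mRNA. H2AX is an exception in that its longest transcript, of 1614 bases, covers the whole gene without an intron. H3.3 is placed at active genes by the HIRA complex and at telomeric and pericentromeric repeats by DAXX and ATRX, and H2A.Z is placed beside transcription start sites by the SRCAP and EP400 complexes. H2A.X is phosphorylated around DNA double-strand breaks, and macroH2A carries a large globular macro domain outside the nucleosome core.

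Total RNA was sequenced from ALL-SIL, an established human cell line of T-cell acute lymphoblastic leukaemia. One group was treated with JQ1, a competitive inhibitor of acetyl-lysine binding by bromodomains of the BET family, and the other was labelled DMSO, the usual solvent. Each group had 3 libraries. The treatment text, 1 µM JQ1 for 24 h, is the same for every sample, DMSO samples included, so the groups rest on the sample titles. All samples come from this single line, and nothing says that the libraries of a group came from separate cultures, so p-values measure only how these libraries spread, and that spread may be technical.

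Gene counts per library ran from 15925885 to 25293884, and all libraries of a group differed by more than sampling noise. The T lineage list had reads for 8 of 8 genes, with TLX1, a T-cell leukaemia oncogene rather than a lineage marker, among them. The list summed to 893 to 1138 CPM (reads relative to scaled library size) in the JQ1 libraries and 1471 to 1657 CPM in the DMSO libraries. CD2 was scarce, with a mean of 0.0561 CPM in JQ1 cells and 1.39 CPM in DMSO cells. Of the 8 genes 7 were lower under JQ1 and 1, TLX1, was higher, at an adjusted p under 0.05 in edgeR. Over all tested genes 20.6% were lower and 15.9% higher. CD7 was called lower (adjusted p = 0.0492 in edgeR) although its groups overlapped. CD2 passed the filter on low counts only through the DMSO libraries. B lineage markers summed to 0.709 to 5.25 CPM in JQ1 libraries and 4.36 to 12.6 CPM in DMSO libraries, with MS4A1 at 0 throughout. Most of that sum was CD79A, with a mean of 2.94 CPM in JQ1 cells and 8.15 CPM in DMSO cells, above CD2. Myeloid markers reached at most 0.141 CPM in a JQ1 library and 0.0758 CPM in a DMSO library, and MPO and HBB had no read. The part of these marker differences in the results on histone genes was not tested.

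The sequences of the H3.3 genes are shown first because they decide how far the reads of H3-3A can be trusted. H3-3A and H3-3B encode the same protein through coding sequences of 411 bases that differ at 88 positions, an identity of 78.6%. The coding sequence of H3-3A is identical over its full length to that of its processed copy H3F3AP4, a pseudogene on chromosome 2. The first 60 coding bases, derived from GENCODE release 29 transcripts, are given from the start codon, with capitals at the bases that differ from H3-3A (13 in H3-3B and 0 in H3F3AP4).
H3-3A: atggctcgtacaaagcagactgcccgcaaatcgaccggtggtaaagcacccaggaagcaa
H3-3B: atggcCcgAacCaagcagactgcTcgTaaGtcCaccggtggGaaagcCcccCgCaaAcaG
H3F3AP4: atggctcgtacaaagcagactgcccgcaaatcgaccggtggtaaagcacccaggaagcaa

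Every 50-base window of the H3-3A coding sequence, 362 of 362, was found in a transcript of at least 1 other gene. For H3-3B this held for 26.5% of windows, for H2AZ2 for 30.8%, for H2AZ1 for 17.8%, and for H2AX for 1.31%, while H2AJ, MACROH2A1 and MACROH2A2 had none. The deposited counts have the layout of a counter that leaves out reads with several best places, so reads from the H3-3A coding sequence could be left out. Its level is therefore uncertain, and how many reads were left out was not tested.

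Under JQ1, 3 of the 6 variant genes that could be tested rose: H3-3B by 1.81-fold, H3-3A by 1.63-fold and H2AX by 1.47-fold. H2AZ1, H2AZ2 and MACROH2A1 did not pass the test in this fit on group alone, and H2AJ and MACROH2A2 had too few reads to be tested. Over all 13975 tested genes 36.6% changed, 15.9% higher and 20.6% lower. With the replicate number as a block, described below, H2AZ1 and H2AZ2 were also called higher (adjusted p of 0.0251 and 0.0221 in edgeR), where 27.3% of all tested genes were higher. None of the 6 variant genes was called lower by edgeR's quasi-likelihood test, and 0 were lower at an unadjusted p under 0.05 with edgeR, DESeq2 or limma-voom. The median log2 fold change of the 6 was 0.37, beside 0.00 over all tested genes. In bulk RNA, more cells with a given mRNA and more mRNA per cell cannot be told apart.

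**Figure D1:**
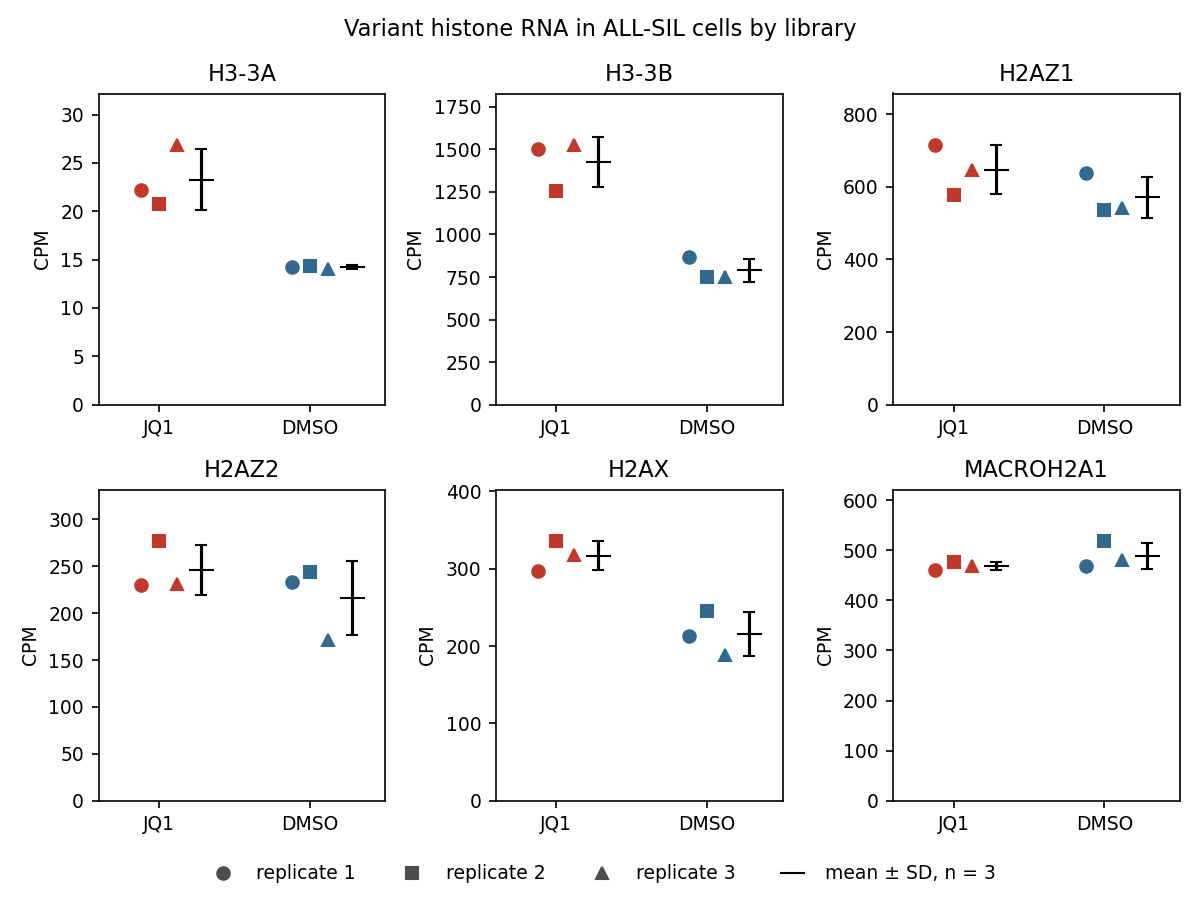
Level of each tested variant histone gene, in CPM of TMM-scaled library size, in 3 JQ1 libraries (red, left) and 3 DMSO libraries (blue, right), with the mean and SD beside the points; every axis starts at 0. All JQ1 points of H3-3A, H3-3B and H2AX lie above all DMSO points, and the points of H2AZ1, H2AZ2 and MACROH2A1 overlap between the groups.

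H3-3B (ENSG00000132475.9, chromosome 17, 75776434 to 75785893, minus strand, GRCh38) had most of the counted reads of the H3.3 pair. Its level was 1501, 1256 and 1524 CPM in JQ1 replicates 1, 2 and 3, against 867, 750.2 and 752 CPM in DMSO replicates 1, 2 and 3. The lowest JQ1 library lay well above the highest DMSO library. The mean was 1427 ± 148 CPM in JQ1 cells and 789.8 ± 66.9 CPM in DMSO cells (SD, n = 3 each). The log2 fold change was 0.85 ± 0.12 (SE), with an adjusted p of 0.000559 in edgeR's quasi-likelihood test with Benjamini-Hochberg adjustment over all tested genes. These values rest on 23639 to 37139 reads per JQ1 library and 17604 to 19853 reads per DMSO library.

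H3-3A (ENSG00000163041.9, chromosome 1, 226061851 to 226072001, plus strand) encodes the same protein from far fewer counted reads. It had 550, 443 and 416 reads in JQ1 replicates 1, 2 and 3, against 290, 366 and 369 reads in DMSO replicates 1, 2 and 3. As CPM these were 22.2, 20.8 and 26.8 in the JQ1 libraries and 14.3, 14.4 and 14.0 in the DMSO libraries. The groups did not overlap, and the DMSO libraries lay close together while JQ1 replicate 3 was the highest. The log2 fold change was 0.71 ± 0.12 (SE), with an adjusted p of 0.00151 in edgeR.

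The pseudogene H3F3AP4 had 93, 87 and 72 reads in JQ1 replicates 1, 2 and 3 and 54, 65 and 73 reads in DMSO replicates 1, 2 and 3. Its level averaged 4.16 CPM in JQ1 cells and 2.66 CPM in DMSO cells, a log2 fold change of 0.64 ± 0.19 (SE) with an adjusted p of 0.0236 in edgeR. With JQ1 replicate 2 or 3, or DMSO replicate 1 or 2, left out the adjusted p was 0.0533 to 0.0833 and the call was lost, as it was with no filter on low counts (0.0511). Because the coding sequences are identical, reads of H3-3A and H3F3AP4 cannot be separated there, and the direction of the pseudogene is uncertain. Of 15 pseudogenes named after the variant genes, 8 had no read in any library, and those other than H3F3AP4 had at most 24 reads in all 6 libraries together.

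H3-3A made up a small and similar part of the reads of the H3.3 pair in both groups. Its share was 1.46%, 1.63% and 1.73% in JQ1 replicates 1, 2 and 3, against 1.62%, 1.88% and 1.82% in DMSO replicates 1, 2 and 3. The shares of the groups overlapped, and the difference between means of 1.61% in JQ1 cells and 1.78% in DMSO cells had p = 0.3 in a 2-sided exact permutation test over libraries. The smallest p this test can give with 3 libraries against 3 is 0.1, so it cannot reach 0.05. Within pairs of the same number the share was lower under JQ1 in 3 of 3, and the paired exact permutation p was 0.25, the smallest possible with 3 pairs.

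H2AX (ENSG00000188486.3, chromosome 11, 119093854 to 119095467, minus strand) encodes the histone phosphorylated by ATM, ATR and DNA-PK at DNA double-strand breaks. Its level was 297, 335 and 317 CPM in JQ1 replicates 1, 2 and 3, against 213, 246 and 188 CPM in DMSO replicates 1, 2 and 3. Every JQ1 library was above every DMSO library. The mean was 317 ± 19.0 CPM in JQ1 cells and 216 ± 28.6 CPM in DMSO cells (SD, n = 3 each), and the log2 fold change of 0.55 ± 0.11 (SE) had an adjusted p of 0.00366 in edgeR. Groups that did not overlap, with JQ1 higher, were found for 3 of the 6 tested variant genes and for 22.9% of all tested genes, and without regard to direction for 3 of 6 and 48.9%.

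H2AZ1 (ENSG00000164032.11, chromosome 4, 99948086 to 99950388, minus strand) is the main H2A.Z gene by read count. Its level was 714, 578 and 647 CPM in JQ1 replicates 1, 2 and 3, against 637, 535 and 541 CPM in DMSO replicates 1, 2 and 3. In both groups replicate 1 was the highest, and the groups overlapped. The log2 fold change was 0.18 ± 0.12 (SE), with an adjusted p of 0.272 in edgeR.

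H2AZ2 (ENSG00000105968.18, chromosome 7, 44826791 to 44848083, minus strand) encodes a second H2A.Z protein that differs from the first at a few residues. Its level was 230.1, 277 and 232 CPM in JQ1 replicates 1, 2 and 3, against 233, 244 and 171 CPM in DMSO replicates 1, 2 and 3. DMSO replicate 3 was the lowest of the 6 libraries, and the remaining libraries of the groups overlapped. The log2 fold change was 0.19 ± 0.14 (SE), with an adjusted p of 0.319 in edgeR. H2AZ1 gave 72.3 ± 4.15% of the reads of the H2A.Z pair in JQ1 cells and 72.6 ± 3.69% in DMSO cells (SD, n = 3 each), with p = 0.9 in the 2-sided exact permutation test.

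Same-numbered JQ1 and DMSO libraries deviated together from their group means, and the number was therefore also fitted as a block. With the replicate number as a block, H2AZ1 had a log2 fold change of 0.18 and an adjusted p of 0.0251 in edgeR, and H2AZ2 had 0.20 and an adjusted p of 0.0221. The fold changes stayed nearly the same and the spread left over was smaller. That fit called 5 of the 6 tested variant genes higher, beside 27.3% of all tested genes, and 0 lower, beside 29.6% (56.9% in either direction).

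**Figure D2:**
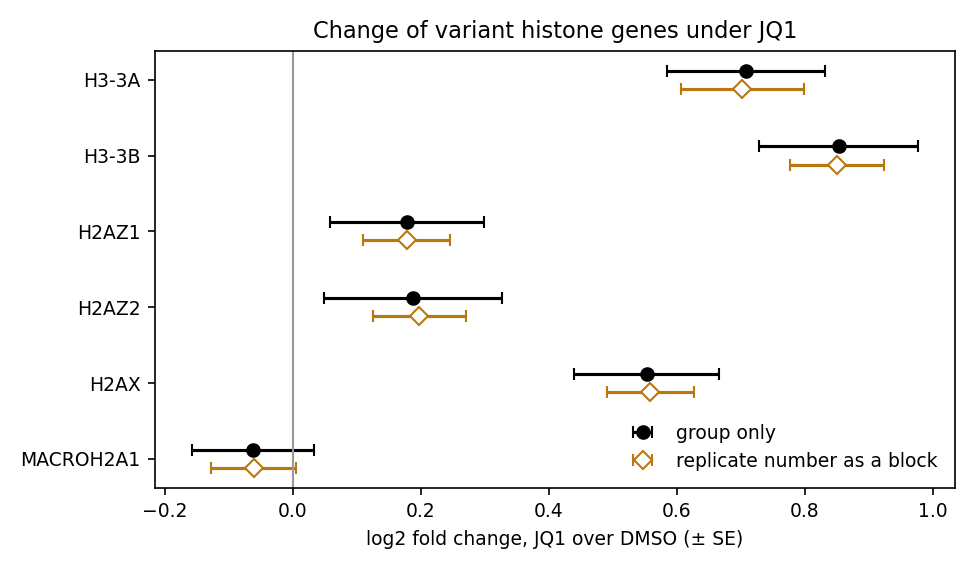
Log2 fold change (JQ1 over DMSO) of the 6 tested variant histone genes with SE bars, from the fit on group alone (black circles) and the fit with the replicate number as a block (orange diamonds). Both fits place H3-3A, H3-3B and H2AX between 0.55 and 0.85, H2AZ1 and H2AZ2 near 0.2 and MACROH2A1 near 0.

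MACROH2A1 (ENSG00000113648.16, chromosome 5, 135333900 to 135399914, minus strand) encodes the macroH2A proteins of most cell types. Its level was 460.4, 476 and 469 CPM in JQ1 replicates 1, 2 and 3, against 468, 518 and 481 CPM in DMSO replicates 1, 2 and 3. The groups overlapped, and the log2 fold change of -0.06 ± 0.10 (SE) had an adjusted p of 0.648 in edgeR. It remained uncalled with the replicate block, with an adjusted p of 0.454.

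The remaining genes were at or below the limit of detection. H2AJ (ENSG00000246705.4, chromosome 12, 14774383 to 14778002, plus strand), whose product accumulates in senescent fibroblasts, had 0 reads in the JQ1 libraries and 1 read in DMSO replicate 1. MACROH2A2 (ENSG00000099284.13, chromosome 10, 70052796 to 70112280, plus strand), which encodes the second macroH2A, had 0 reads in all 6 libraries. A count of 0 over a group allows a level of up to 0.0487 CPM in JQ1 cells and 0.0416 CPM in DMSO cells (3 counts over the group, counting error only). All reads of the macroH2A pair thus came from MACROH2A1.

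Levels of different genes were compared per kilobase of exon union. In JQ1 cells the order was H2AZ1 (281 ± 29.4 CPM per kb), H3-3B (233 ± 24.2), H2AX (196 ± 11.8), H2AZ2 (51.8 ± 5.57), MACROH2A1 (26.4 ± 0.450) and H3-3A (7.40 ± 1.00), as mean ± SD of n = 3. In DMSO cells it was H2AZ1 (248 ± 24.7 CPM per kb), H2AX (134 ± 17.7), H3-3B (129 ± 10.9), H2AZ2 (45.5 ± 8.27), MACROH2A1 (27.6 ± 1.46) and H3-3A (4.52 ± 0.0657). H2AX and H3-3B, neighbours in this order, overlapped between libraries in both groups. With the length of the longest protein-coding transcript in place of the union, MACROH2A1 stood above H2AZ2, at 168 against 64.7 CPM per kb in JQ1 cells and 175 against 56.8 CPM per kb in DMSO cells. On that length H3-3B stood clear of H2AX in both groups, at 527 against 196 CPM per kb in JQ1 cells and 292 against 134 CPM per kb in DMSO cells. In DMSO cells MACROH2A1 (175) also stood above H2AX (134), so the order below H2AZ1 depends on the length used.

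The 8 genes together took 0.321%, 0.284% and 0.313% of gene counts in JQ1 replicates 1, 2 and 3, against 0.242%, 0.232% and 0.228% in DMSO replicates 1, 2 and 3. The groups did not overlap, and H3-3B had the largest difference in CPM among them. Within single libraries, H3-3B gave 67.8%, 68.5% and 70.2% of the reads of H3-3B and H2AZ1 in JQ1 replicates 1, 2 and 3, against 57.7%, 58.4% and 58.2% in DMSO replicates 1, 2 and 3. H2AX gave 39.2%, 41.3% and 40.4% of the reads of H2AX and MACROH2A1 in the JQ1 libraries, against 31.3%, 32.2% and 28.1% in the DMSO libraries. These within-library shares need no scaling between libraries, and neither pair overlapped between groups. The pairs were chosen after their values were seen. Each sets a gene called higher against a gene not called in the fit on group alone. The lack of overlap is therefore no separate support for those calls. Both shares had p = 0.1 in the 2-sided exact permutation test, the smallest it can give, and an adjusted p of 0.225 over 9 shares.

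Of 59 core histone genes of the histone clusters 47 were tested, of which 21 were higher and 2 lower, with a median log2 fold change of 0.37. These are 44.7% higher, beside 15.9% of all tested genes. With the replicate block 30 were higher and 3 lower, where 27.3% of all tested genes were higher and 29.6% lower. In the fit on group alone, the core H3 genes had 5 of 8 tested genes higher and 0 lower in edgeR, with a median of 0.45. The H2A genes had 7 of 12 higher and 0 lower, with a median of 0.37. The H2B genes had 4 of 16 higher and 1 lower, with a median of 0.27, and the H4 genes 5 of 11 higher and 1 lower, with a median of 0.39. Core histone genes are near-identical copies, so their counts are uncertain.

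H3.3 was set against the reads of 13 H3 genes, the H3.3 pair and 11 core H3 genes, without CENPA and H3-5. It took 30.1%, 29.6% and 25.6% of these H3 reads in JQ1 replicates 1, 2 and 3, against 24.8%, 25.1% and 21.2% in DMSO replicates 1, 2 and 3. The macroH2A share of the reads of 21 H2A genes was 6.90%, 7.95% and 6.10% in the JQ1 libraries, against 8.22%, 10.4% and 8.84% in the DMSO libraries. H3.3 was higher in every JQ1 library and macroH2A was lower in every JQ1 library, by 4.72 and -2.16 percentage points between means (JQ1 minus DMSO). Each had p = 0.1 and an adjusted p of 0.225 in the exact permutation test. The H2A.Z share, 14.1%, 14.3% and 11.4% in JQ1 libraries and 15.3%, 15.6% and 13.1% in DMSO libraries, overlapped between groups (exact permutation p = 0.4). The H2AX share overlapped as well, at 4.45%, 5.60% and 4.13% in JQ1 libraries and 3.75%, 4.92% and 3.46% in DMSO libraries (exact permutation p = 0.4). Within pairs of the same replicate number, the H2AX share was higher under JQ1 in 3 of 3 pairs (by 0.703, 0.675 and 0.669 points) and the H2A.Z share was lower in 3 of 3 (JQ1 minus DMSO of -1.13, -1.35 and -1.65 points). H3.3 and macroH2A also kept 1 direction in 3 of 3 pairs. The paired exact permutation test gave p = 0.25 for each of the 4 shares, the smallest it can give with 3 pairs. Total RNA is needed for such shares, since most core histone mRNAs would be missed by selection for poly(A). Reads of identical copies could be left out, so these are shares of counted reads and not of mRNA.

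**Figure D3:**
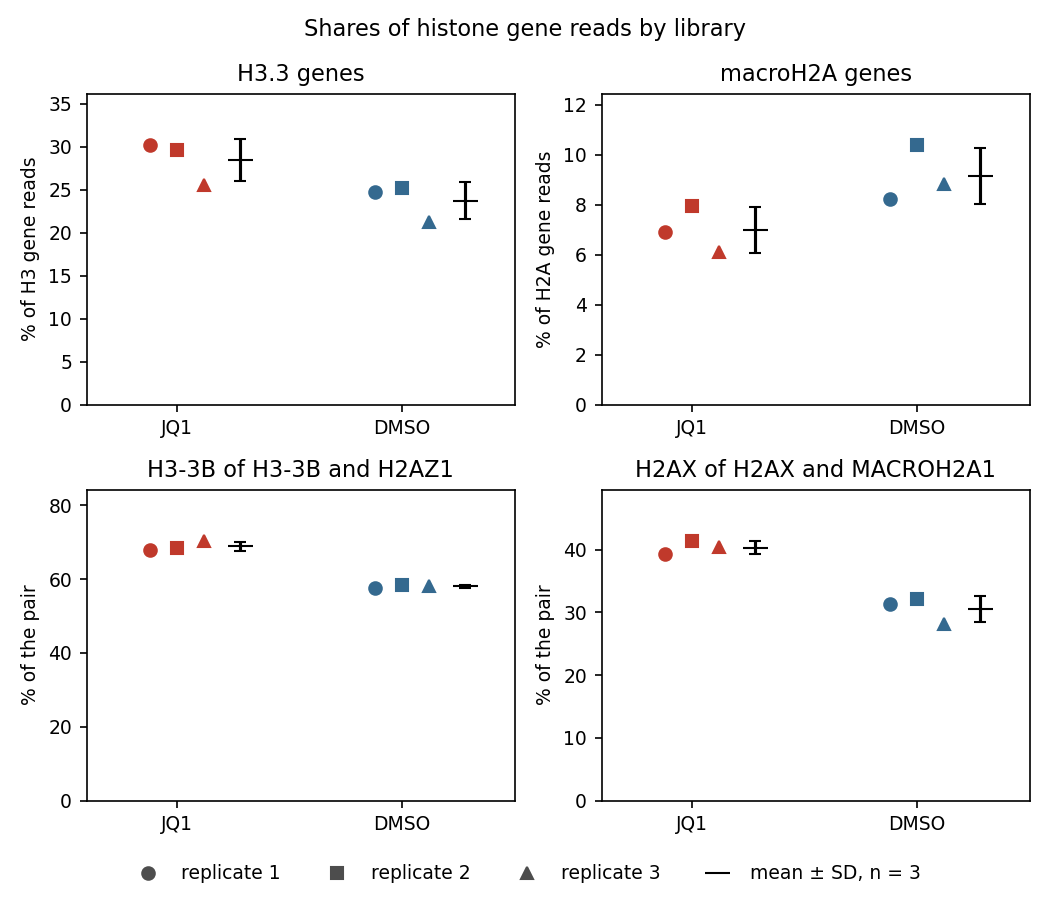
Shares of histone gene reads in 3 JQ1 libraries (red, left) and 3 DMSO libraries (blue, right), in percent, with mean and SD; all axes start at 0. H3.3 of the reads of 13 H3 genes, H3-3B of H3-3B and H2AZ1, and H2AX of H2AX and MACROH2A1 were higher in every JQ1 library. MacroH2A of the reads of 21 H2A genes was lower in every JQ1 library. Only shares whose groups did not overlap are shown.

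The promoters of H3-3B, H2AX, H2AZ1 and H2AZ2 are shown as those of the tested variant genes with a single RefSeq start window. Each is 300 bases from RefSeq, build GRCh38.p14, from 250 bases before to 50 bases after the start, on the minus strand and written 5′ to 3′. Capitals mark CCAAT or its complement ATTGG, the TATA box TATAAA or its complement TTTATA, and the octamer ATTTGCAT or its complement ATGCAAAT.
H3-3B (chr17:75779730-75780029): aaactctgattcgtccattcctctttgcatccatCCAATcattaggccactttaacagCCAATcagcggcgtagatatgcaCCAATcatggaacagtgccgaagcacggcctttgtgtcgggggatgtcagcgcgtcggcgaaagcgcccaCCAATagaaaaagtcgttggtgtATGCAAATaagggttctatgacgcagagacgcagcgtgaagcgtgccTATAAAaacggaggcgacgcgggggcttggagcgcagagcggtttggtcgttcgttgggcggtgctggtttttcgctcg
H2AX (chr11:119095416-119095715): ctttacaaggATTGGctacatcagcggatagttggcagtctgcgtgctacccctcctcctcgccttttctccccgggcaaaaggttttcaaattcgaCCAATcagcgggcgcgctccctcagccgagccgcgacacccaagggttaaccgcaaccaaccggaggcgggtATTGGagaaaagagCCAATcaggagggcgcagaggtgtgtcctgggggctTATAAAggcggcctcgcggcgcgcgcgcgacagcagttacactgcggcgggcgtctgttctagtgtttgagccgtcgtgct
H2AZ1 (chr4:99950226-99950525): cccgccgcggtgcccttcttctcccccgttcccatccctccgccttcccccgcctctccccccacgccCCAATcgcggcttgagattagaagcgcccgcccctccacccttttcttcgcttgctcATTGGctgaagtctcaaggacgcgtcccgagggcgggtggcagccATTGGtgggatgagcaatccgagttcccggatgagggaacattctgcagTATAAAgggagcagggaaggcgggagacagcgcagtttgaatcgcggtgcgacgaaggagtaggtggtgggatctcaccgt
H2AZ2 (chr7:44848038-44848337): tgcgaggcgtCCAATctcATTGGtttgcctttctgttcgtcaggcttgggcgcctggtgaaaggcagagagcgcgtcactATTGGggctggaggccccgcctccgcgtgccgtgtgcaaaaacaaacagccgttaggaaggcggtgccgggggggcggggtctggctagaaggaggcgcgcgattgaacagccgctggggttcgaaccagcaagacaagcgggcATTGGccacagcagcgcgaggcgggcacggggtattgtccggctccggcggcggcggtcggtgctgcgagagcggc

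CCAAT was present 4 times in the H3-3B, H2AX and H2AZ2 promoters and 3 times in the H2AZ1 promoter, on either strand. Of 35116 RefSeq promoters of the same length 0.991% had at least 4 and 3.26% at least 3. TATAAA was found in those of H3-3B, H2AX and H2AZ1 but not of H2AZ2, and 11.5% of all promoters held it. The octamer was in that of H3-3B alone among these, and in 1.77% of all promoters. H3-3A, which rose as well, has 4 start windows with at most 1 CCAAT and no TATAAA in each. The H2AJ promoter had 3 CCAAT with 1 read of the gene in all 6 libraries, the MACROH2A1 windows had 0 and 2, and that of MACROH2A2 had 0. Neither TGACGTCA nor CACGTG was in any window of the 8 genes. Such matches are letters in a window and not sites of binding.

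Genes on the opposite strand at the variant loci were read separately, since the kit keeps strand. Of 6 such genes 2 were higher under JQ1, and 0 were lower at the adjusted threshold in edgeR (2 at an unadjusted p under 0.05). Over all tested genes 15.9% were higher and 20.6% lower. Groups did not overlap for 22.9% of all tested genes with JQ1 higher, and for 48.9% in either direction. H2AZ1-DT, an antisense RNA gene that overlaps the start of H2AZ1 (chromosome 4, 99950006 to 100195099), had 12, 13 and 11 reads in JQ1 replicates 1, 2 and 3, against 1, 0 and 4 reads in DMSO replicates 1, 2 and 3. It averaged 0.601 CPM in JQ1 cells and 0.0669 CPM in DMSO cells (adjusted p = 0.00492 in edgeR). H2AZ1-DT passed the filter on low counts only through the JQ1 libraries. Its call, and its lack of overlap given below, are therefore no separate support for a rise. H2AZ1 itself did not pass the test in the fit on group alone and was called higher with the replicate block (adjusted p of 0.272 and 0.0251 in edgeR). AC026691.1, which lies antisense over the start of MACROH2A1 (chromosome 5, 135399280 to 135401296), had 31, 48 and 31 reads in JQ1 replicates 1, 2 and 3, against 13, 19 and 16 reads in DMSO replicates 1, 2 and 3. Its log2 fold change was 1.44 ± 0.31 (SE), with an adjusted p of 0.00501 in edgeR. For both, every JQ1 library was above every DMSO library, on few reads, so the sizes are imprecise. UNK, opposite H3-3B, had 54.8 CPM in JQ1 cells and 64.1 CPM in DMSO cells (adjusted p = 0.0621 in edgeR), and PITX1-AS1, opposite MACROH2A1, had 0.631 CPM in JQ1 cells and 1.15 CPM in DMSO cells (adjusted p = 0.0714). Each of these was lower in every JQ1 library without passing the test. H3-3A-DT and AIFM2 overlapped between groups (adjusted p of 0.812 and 0.336 in edgeR).

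The genes that place, remove, read or signal through the variants, and other variant histones, were taken as 8 lists of 92 genes, of which 75 were tested. Of these 11 were higher and 12 lower (14.7% higher), which is near the 15.9% higher and 20.6% lower among all genes. Leaving out JQ1 replicate 1 or JQ1 replicate 3 gave 6 higher genes, and leaving out DMSO replicate 1 gave 7. With the replicate block the counts were 22 higher and 21 lower of the 75, where 27.3% of all tested genes were higher and 29.6% lower. The same shares over all tested genes stand beside the block counts of each list below.

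Of the 8 genes that deposit H3.3, 4 rose and 1 fell, with a median log2 fold change of 0.19. These are 50% higher and 12.5% lower, beside 15.9% and 20.6% of all tested genes. The number higher was 1 with JQ1 replicate 1 or 3 left out, and 2 with JQ1 replicate 2, DMSO replicate 1 or DMSO replicate 2 left out. It was 1 with library size alone or no filter and 2 with unstranded counts, and with the replicate block 4 were higher and 2 lower. UBN1 (147 CPM in JQ1 cells and 123 CPM in DMSO cells), UBN2 (68.1 and 55.6 CPM) and CABIN1 (143 and 119 CPM), subunits of the HIRA complex, had log2 fold changes of 0.26 ± 0.09, 0.29 ± 0.09 and 0.27 ± 0.09 (SE) and adjusted p-values of 0.0368, 0.0235 and 0.0488 in edgeR. ASF1A, the H3-H4 chaperone that hands H3.3 to HIRA, had 147 CPM in JQ1 cells and 119 CPM in DMSO cells (adjusted p = 0.0150). Scaled by library size alone, UBN1, UBN2 and CABIN1 were not called (adjusted p of 0.0918, 0.0870 and 0.159). The same held with no filter on low counts (0.0776, 0.0511 and 0.0770), and with unstranded counts UBN1 and CABIN1 were not called (0.0621 and 0.0650). UBN1 was also not called with JQ1 replicate 1 or 3, or DMSO replicate 2 or 3, left out (adjusted p of 0.0903 to 0.115). UBN2 was not called with JQ1 replicate 2 or 3, or DMSO replicate 1, left out (0.0558 to 0.0793), CABIN1 with any JQ1 replicate, or DMSO replicate 1 or 2, left out (0.0515 to 0.152), and ASF1A with JQ1 replicate 1 left out (0.0515).

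DAXX, the H3.3 chaperone that works with ATRX, was the gene that fell, at 65.2 ± 0.972 CPM in JQ1 cells and 91.9 ± 4.58 CPM in DMSO cells (SD, n = 3 each). Its log2 fold change was -0.50 ± 0.08 (SE), with an adjusted p of 0.00101 in edgeR. HIRA itself had 18.6 CPM in JQ1 cells and 21.7 CPM in DMSO cells (adjusted p = 0.255 in edgeR, and 0.0302, lower, with the replicate block). ATRX had 168 CPM in JQ1 cells and 155 CPM in DMSO cells (adjusted p = 0.253).

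Of the 7 chaperones of newly made H3 and H4, 2 rose and 0 fell in edgeR, with a median of 0.31 (5 higher and 1 lower with the replicate block). The 28.6% higher stands beside 15.9% of all tested genes, and the 0 lower beside 20.6%. ASF1B, the ASF1 form of dividing cells, had 159 CPM in JQ1 cells and 106 CPM in DMSO cells, a log2 fold change of 0.58 ± 0.11 (SE, adjusted p = 0.00293 in edgeR). TONSL, which binds new H4 behind the replication fork, had 173 ± 43.7 CPM in JQ1 cells and 104 ± 27.8 CPM in DMSO cells (SD, n = 3 each), and the libraries overlapped (adjusted p = 0.0464 in edgeR). Leaving out JQ1 replicate 1 or 3, or DMSO replicate 1 or 2, ended the TONSL call (adjusted p of 0.0753 to 0.123), as did scaling by library size alone (0.0691).

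Of the 26 genes of the SRCAP, EP400-TIP60 and INO80 complexes and ANP32E, which place or remove H2A.Z, 8 fell and 1 rose, with a median of -0.16. The share of lower genes was 30.8%, beside 20.6% of all tested genes, and it was 5 genes with JQ1 replicate 1 or DMSO replicate 1 left out. The replicate block gave 2 higher and 11 lower. The ATPases RUVBL1 (77.6 CPM in JQ1 cells and 109 CPM in DMSO cells) and RUVBL2 (84.4 and 119 CPM) had log2 fold changes of -0.49 ± 0.10 and -0.50 ± 0.11 (SE), with adjusted p-values of 0.00402 and 0.00426 in edgeR. INO80, the ATPase of its complex, had 52.2 CPM in JQ1 cells and 74.3 CPM in DMSO cells (-0.51 ± 0.09, adjusted p = 0.00126). ANP32E, the chaperone that removes H2A.Z, had 132 CPM in JQ1 cells and 183 CPM in DMSO cells (-0.47 ± 0.11, adjusted p = 0.00815). BRD8, a bromodomain subunit of the EP400-TIP60 complex, was the gene that rose, with 104 CPM in JQ1 cells and 71.8 CPM in DMSO cells (adjusted p = 0.0194), but not with JQ1 replicate 2, or DMSO replicate 1 or 3, left out (0.0584 to 0.0744). The ATPases that lead the depositing complexes, SRCAP (5.80 CPM in JQ1 cells and 5.68 CPM in DMSO cells) and EP400 (51.1 and 46.0 CPM), had adjusted p-values of 0.959 and 0.349 in edgeR.

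**Figure D4:**
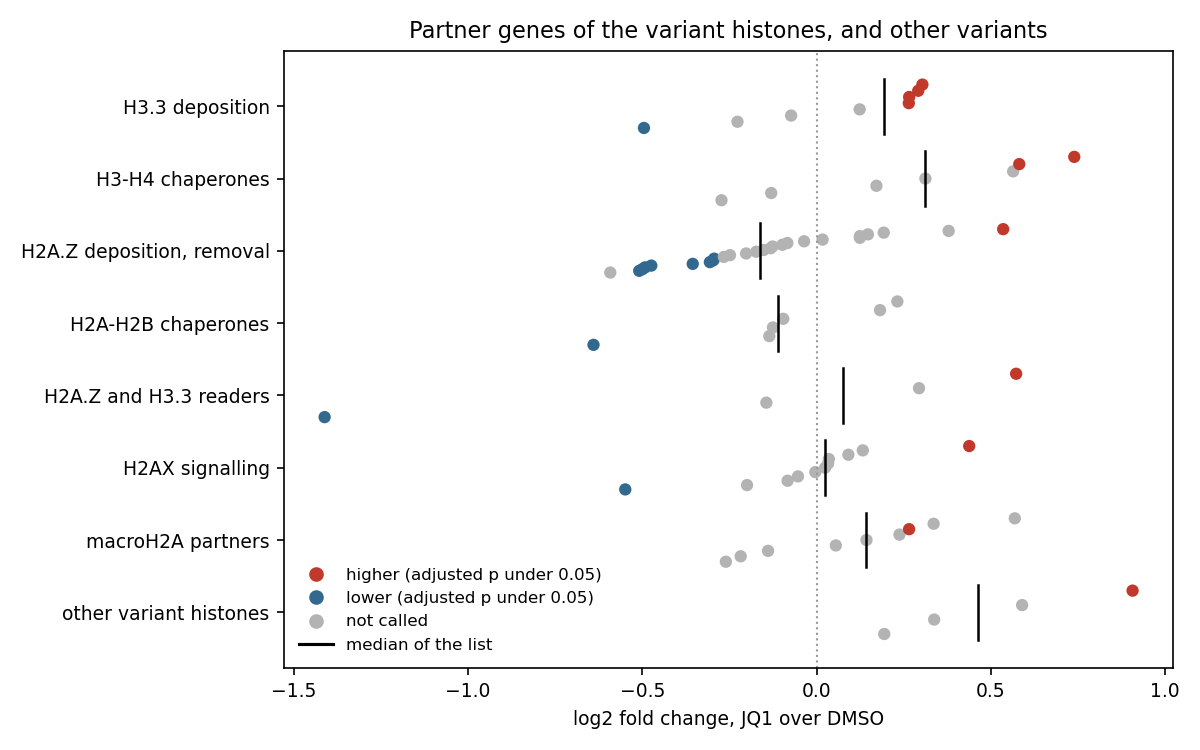
Log2 fold change (JQ1 over DMSO) of each tested gene in the 8 partner lists, 1 point a gene (red higher, blue lower, grey not called at an adjusted p of 0.05), with the list's median as a vertical bar; height within a list only separates the points. The median lies above 0 for other variant histones (0.46), H3-H4 chaperones (0.31), H3.3 deposition (0.19) and macroH2A partners (0.14). It is also above 0 for readers (0.07) and H2A.X signalling (0.02). It lies below 0 for H2A.Z deposition and removal (-0.16) and H2A-H2B chaperones (-0.11).

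Among the readers, BRD2, a BET protein that binds acetylated H2A.Z nucleosomes and is itself bound by JQ1, rose to 531 ± 91.4 CPM in JQ1 cells, against 357 ± 45.8 CPM in DMSO cells (SD, n = 3 each, log2 fold change 0.57, adjusted p = 0.0114 in edgeR). PWWP2B, a paralog of the H2A.Z reader PWWP2A, fell to 7.45 ± 0.838 CPM in JQ1 cells, against 19.9 ± 0.879 CPM in DMSO cells, a log2 fold change of -1.41 ± 0.13 (SE, adjusted p = 4.35e-05 in edgeR). With the replicate block 2 of the 4 readers were higher and 2 lower, against 1 each way without it. Without the block that is 25% each way, where 15.9% of all tested genes were higher and 20.6% lower. Of 6 chaperones of H2A and H2B 1 fell and 0 rose in edgeR: SSRP1, a subunit of FACT, had 186 CPM in JQ1 cells and 290 CPM in DMSO cells (-0.64 ± 0.11, adjusted p = 0.00144). The block fit called 2 of these chaperones higher and 1 lower. In the fit on group alone 16.7% of them were lower, beside 20.6% of all tested genes.

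Of the 11 tested genes of H2A.X signalling, 1 rose and 1 fell, with a median of 0.02 (1 higher and 2 lower with the replicate block). That is 9.09% each way, below the 15.9% higher and 20.6% lower of all tested genes. RNF168, the ubiquitin ligase that marks H2A at breaks, had 193 CPM in JQ1 cells and 142 CPM in DMSO cells (adjusted p = 0.0135 in edgeR). TP53BP1, which binds that mark, had 61.7 CPM in JQ1 cells and 90.1 CPM in DMSO cells (adjusted p = 0.0117). MDC1, which binds phosphorylated H2A.X directly, had 56.0 CPM in JQ1 cells and 54.7 CPM in DMSO cells (adjusted p = 0.770). Of 9 genes tied to macroH2A 1 rose and 0 fell in edgeR: QKI, a splicing factor of the MACROH2A1 transcript, had 163 CPM in JQ1 cells and 136 CPM in DMSO cells (adjusted p = 0.0398), but was not called with JQ1 replicate 1 or 3, or any DMSO replicate, left out (0.0571 to 0.139), nor with library size alone, no filter or unstranded counts (0.114, 0.0768 and 0.0643). PARP1, whose activity macroH2A restrains, had 340 CPM in JQ1 cells and 327 CPM in DMSO cells (adjusted p = 0.759). In the block fit 3 of the macroH2A genes were higher and 2 lower, and the median of the list was 0.14 in the fit on group alone. The share higher in the fit on group alone was 11.1%, below the 15.9% of all tested genes.

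The last list held 18 genes, other variant and tissue-restricted histones together with HJURP, the chaperone of CENPA. Of these 11 had no read and 4 were tested, of which 1 rose and 0 fell in edgeR (3 higher with the replicate block, HJURP among them). In the fit on group alone that is 25% higher, beside 15.9% of all tested genes. H1-10, a replication-independent linker histone, rose to 217 ± 23.0 CPM in JQ1 cells, against 116 ± 7.47 CPM in DMSO cells (SD, n = 3 each), with a log2 fold change of 0.91 ± 0.10 (SE) and an adjusted p of 0.000125 in edgeR. CENPA, the centromeric H3 variant, had 39.3 ± 15.1 CPM in JQ1 cells and 34.4 ± 16.9 CPM in DMSO cells (adjusted p = 0.749 in edgeR, and 0.0201, higher, with the replicate block). Its libraries overlapped widely.

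The genes whose profile over the 6 libraries was most like each variant gene were found by the root mean square difference in log2 CPM, after each gene's mean was subtracted, among 8334 protein-coding genes. For H3-3B they were SIRT1 (0.0601), XPR1 (0.0659) and TENT4B (0.0674), for H3-3A ZNF611 (0.0384), H4C8 (0.0565) and SP4 (0.0608), and for H2AX ARFGAP3 (0.0389), ELMOD2 (0.0490) and CYB5R4 (0.0490). For H2AZ1 they were ZNG1A (0.0243), ZDHHC18 (0.0309) and RPAP3 (0.0338), for H2AZ2 FAM111A (0.0323), CALM2 (0.0462) and KIF15 (0.0478), and for MACROH2A1 AKAP10 (0.0141), CEPT1 (0.0205) and NVL (0.0232). With 6 libraries in 2 groups, these distances mostly compare the group difference, and the genes share libraries and depth.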

How the data were processed

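Total RNA libraries were made with a stranded kit, per the labels' protocols. The deposited files hold raw counts of reads per gene for each strand and without regard to strand and refer to GRCh38, as the submitters' processing notes state. For the aligner, annotation release and read length, the answer is: not given in the sources used here. The layout is that of STAR's gene counts, which leave out reads with several places or genes. The sense column was used; it exceeded the opposite strand by 20.9 to 22.6 times in gene counts. The first 4 lines are read classes and were left out, with 14.1% to 15.7% of reads multimapping, 18.8% to 26.1% outside genes, 3.38% to 3.88% ambiguous and 1.48% to 1.99% unmapped. Of 58096 identifiers, 57492 were found in GENCODE release 29, and 53706 when the version was compared too; H3-3B matched without its version, and its position is that of the release.

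Genes were kept with filterByExpr (minimum count 10, minimum total 15) and scaled by TMM, with factors of 0.965 to 1.06. They were tested with edgeR 4.0.16 (glmQLFit, robust, and glmQLFTest, no covariate; R 4.3.3) and called at a Benjamini-Hochberg adjusted p under 0.05 over 13975 genes. The SE of a log2 fold change is its size over the root of F. CPM is relative to TMM-scaled library size. No outcome of a test of the procedure on simulated data is given here. Alternatives were DESeq2 1.42.0, voom of limma 3.58.1, other scalings and filters, unstranded counts, a test against a fold change of 1.5, a replicate block and each library left out.

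Same-numbered libraries deviated together (correlations of deviations of 0.33, 0.43 and 0.37, against -0.25 to -0.14 for other pairs). The numbers were therefore taken to pair the samples in the block fit and the within-pair shares, though no label states what the numbers stand for. The main fit did not use this pairing. The common biological coefficient of variation was 0.126, and 0.0595 with the block.

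Shares were compared by exact permutation over libraries, and, as an alternative added after their values were seen, within pairs. The variant genes and lists were chosen with earlier results of these data known, and class and pairwise shares after their values were seen. Named genes were all 8 variant genes, all called genes of a list with up to 6 calls (otherwise the 3 of smallest p in each direction), a fixed set, and 3 nearest profiles for each variant gene; neighbouring and pseudogene loci were added by position or name. Intervals and floors cover counting error only.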

Additional observations from a re-analysis of the deposited data

Results flagged for a closer look

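Reads on the strand opposite to the variant genes were not part of the comparisons above. Opposite to H3-3B there were 237, 192 and 153 reads in JQ1 replicates 1, 2 and 3, against 172, 210 and 228 reads in DMSO replicates 1, 2 and 3. The mean level was 9.48 CPM in JQ1 cells and 8.45 CPM in DMSO cells, and every JQ1 library was above every DMSO library as CPM. Relative to the sense reads of H3-3B they were 0.665% in JQ1 cells and 1.08% in DMSO cells. Opposite to H2AZ2 there were 13, 17 and 6 reads in JQ1 replicates 1, 2 and 3, against 5, 7 and 4 reads in DMSO replicates 1, 2 and 3. The mean level was 0.570 CPM in JQ1 cells and 0.224 CPM in DMSO cells, on few reads. These were picked out as signal outside the main measurement that lay above the DMSO libraries, and neither difference was tested.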

How the results depend on the processing

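H3-3A, H3-3B and H2AX kept their direction in all 17 alternatives, with log2 fold changes of 0.60 to 0.78, 0.79 to 0.94 and 0.47 to 0.66. Their calls were lost only in the test against a fold change of 1.5, with adjusted p-values of 0.367, 0.0740 and 1.00. Without any single library their adjusted p-values were 0.00165 to 0.00668, 0.000510 to 0.00313 and 0.00258 to 0.0148. H2AZ1 ranged from 0.10 to 0.27 and H2AZ2 from 0.05 to 0.29 and were called only with the replicate block; MACROH2A1 ranged from -0.12 to -0.01 and was never called. With the replicate block 5 variant genes were higher, 3813 of all genes were higher and 4133 lower (2227 and 2883 without it), and 22 partner genes were higher and 21 lower (11 and 12 without it). Against a fold change of 1.5, edgeR called 0 variant genes higher (1 at an unadjusted p under 0.05), 246 genes higher and 899 lower, and 1 partner gene each way. Scaling by library size alone left 6 partner genes higher and shifted the median of all genes by -0.06. Leaving out each library gave 6 to 9 partner genes higher and 9 to 12 lower, 1707 to 1901 genes higher and 2436 to 2627 lower, and 3 variant genes higher each time. The H3-3A share of its pair differed by -0.25 to -0.10 percentage points, the H2AZ1 share by -2.29 to 2.01. Per kb of the longest transcript, JQ1 levels were 660.3 for H2AZ1, 527 for H3-3B, 196 for H2AX, 168 for MACROH2A1, 64.7 for H2AZ2 and 12.5 for H3-3A. The causes were not tested. At 15925885 to 25293884 gene counts, H2AJ and MACROH2A2 were below detection, and identical copies limit H3-3A.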
